A study of Mus musculus with 9 samples.

Results

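Expression of 10 genes of the lipid droplet and of triglyceride turnover was followed across birth in the mouse heart. They were chosen by symbol (*Plin2*, *Plin3*, *Plin4*, *Plin5*, *Cidea*, *Pnpla2*, *G0s2*, *Abhd5*, *Dgat1* and *Dgat2*), and all 10 were found among the 48820 genes measured. RNA-seq was performed on 9 hearts of untreated wild-type C57BL/6J mice labelled male, 3 at embryonic day 18.5 (E18.5d), 3 at postnatal day 1 (P1d) and 3 at postnatal day 7 (P7d). The hearts of each stage are labelled biological replicates, and the labels do not say whether they came from separate litters. Expression is given as FPKM, fragments per kilobase of transcript scaled to the mapped fragments of the heart, so levels can be compared between genes per unit of length. The stages were compared to ask how the transcriptome of the heart changes around birth.

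Triglycerides are stored in lipid droplets, a core of neutral lipid wrapped in a phospholipid monolayer and a coat of proteins. Diacylglycerol acyltransferases, encoded by *Dgat1* and *Dgat2*, add the last fatty acid to make triglyceride. Perilipins cover the droplet and control access to it, and adipose triglyceride lipase, encoded by *Pnpla2*, removes the first fatty acid under the control of an activator (*Abhd5*) and an inhibitor (*G0s2*). In the heart, which burns fatty acids after birth, this turnover supplies fatty acids to mitochondria and to nuclear receptors of the PPAR family.

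The genes lie on 7 chromosomes of GRCm38, and 3 of the perilipin genes share a stretch of the minus strand of chromosome 17. *Plin4* (ENSMUSG00000002831.13) spans chr17:56100591-56109803, *Plin5* (ENSMUSG00000011305.11) spans chr17:56111601-56117596 and *Plin3* (ENSMUSG00000024197.9) spans chr17:56277476-56292873. *Plin4* and *Plin5* are direct neighbours with 1797 bases between them. *Plin2* (ENSMUSG00000028494.12) is at chr4:86648386-86670060 on the minus strand. *Pnpla2* (ENSMUSG00000025509.15, chr7:141455198-141460743, plus strand) and *Dgat2* (ENSMUSG00000030747.5, chr7:99153658-99182719, minus strand) share chromosome 7. *G0s2* (ENSMUSG00000009633.3) is at chr1:193272161-193273217 on the minus strand, *Abhd5* (ENSMUSG00000032540.15) at chr9:122351608-122381524 on the plus strand and *Dgat1* (ENSMUSG00000022555.11) at chr15:76502015-76511953 on the minus strand. In GENCODE M21, 4 of the genes overlap a gene on the other strand. *Abhd5* shares 950 of its 5956 exon bases with the antisense gene *A730085K08Rik*, whose FPKM did not pass 0.51 in any heart, and *Plin4* shares 17 of 5777 with *Hdgfl2*, while *Cidea* and *G0s2* share no exon base with *B430212C06Rik* and *Lamb3*. The sources used here do not state that strand was used in counting, so reads from shared bases cannot be told apart.

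PPARs are known to act on several perilipin genes and bind a direct repeat of the hexamer AGGTCA with 1 base between the copies. A single AGGTCA is only 1 copy of that repeat. RefSeq promoter windows (GRCm38.p6, 250 bases before to 50 after each start) were available for 7 of the genes, 8 windows in all since *Plin5* has 2. They were searched for AGGTCA, for its direct repeat with 1 base between the copies and for ACGTG, the core bound by hypoxia-inducible factors, each on both strands. AGGTCA was present in 4 of the 8 windows, those of *Plin2*, *Abhd5* and both of *Plin5*, against 16.3% of all 32851 windows. Its direct repeat was in 0 of the 8 and in 0.0396% of all windows, and ACGTG was in 1, that of *Plin2*, against 19.6%. The 100 bases around the hexamer are shown for the 3 genes that hold it, 5′ to 3′ on the strand of the gene, with the hexamer in capitals (TGACCT is the same hexamer read on the other strand). A match describes the letters of the window and not a bound site. The windows are chr17:56117666-56117765 for *Plin5*, chr4:86670210-86670309 for *Plin2* and chr9:122351500-122351599 for *Abhd5*.
Plin5: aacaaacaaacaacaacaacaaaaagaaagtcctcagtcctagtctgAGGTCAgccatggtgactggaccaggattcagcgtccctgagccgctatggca
Plin2: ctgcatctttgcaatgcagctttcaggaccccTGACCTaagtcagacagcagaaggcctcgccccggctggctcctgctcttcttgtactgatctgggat
Abhd5: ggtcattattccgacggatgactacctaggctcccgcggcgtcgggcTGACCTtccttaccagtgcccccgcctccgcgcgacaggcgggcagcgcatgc

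The hearts held between 25.5 and 46.25 times 1e6 counted fragments, as read from the steps between low FPKM values. All hearts are labelled male, yet *Xist*, the RNA of the inactive X chromosome, was between 58.03 and 97.03 FPKM in 4 of them (E18.5d replicates 1 and 3, P7d replicates 2 and 3). It was at most 0.11 in the other 5. RNA from 4 genes of the Y chromosome (*Eif2s3y*, *Uty*, *Kdm5d*, *Ddx3y*) was at 0 FPKM in the hearts with high *Xist*. In the other 5 it was between 9.74 and 40.87 FPKM for each gene. The RNA of the 4 hearts thus does not match their male label. High *Xist* was found in 2 of 3 hearts at E18.5d, 0 of 3 at P1d and 2 of 3 at P7d. Each comparison with P1d is therefore partly one between *Xist* classes (above or below 1 FPKM). The summed FPKM of 8 cardiomyocyte markers was high at each stage, 22300 to 23800 at E18.5d, 25800 to 28200 at P1d and 24600 to 25700 at P7d. Markers of other cells also moved with stage. The sum over 7 neutrophil markers was 6.24 to 12.5 FPKM at E18.5d, 49.4 to 74.0 at P1d and 15.6 to 19.9 at P7d. The sum over 4 endothelial markers was 260 to 294, 308 to 341 and 378 to 392 FPKM in the same order. Single markers did not all follow these sums. The mean of *Kdr* was 62.0, 48.0 and 83.8 FPKM, while those of *Pecam1*, *Cdh5* and *Tie1* were higher at P1d than at E18.5d. Among the cardiomyocyte markers, the mean of *Myh6* was 3220, 6740 and 8320 FPKM and that of *Nppa* 2100, 2540 and 1050.

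Between E18.5d and P7d, 7 of the 10 genes rose, 1 fell (*G0s2*) and 2 (*Plin3* and *Dgat1*) did not pass the test, limma on log2(FPKM + 1) with an adjusted p under 0.05. Of all 13618 genes tested, 49.4% were called in this comparison, 12.5% higher and 36.9% lower. The median log2 change was 0.73 over the 10 genes and -0.17 over all genes tested. In the hearts themselves, 7 of the genes were higher in every P7d heart than in every E18.5d heart and 1 was lower, and 62.5% of all genes did not overlap in this way, 16.9% higher and 45.6% lower. In tissue RNA, fewer cells of a type and less RNA per cell cannot be told apart.

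Between E18.5d and P1d, 8 of the 10 rose, 1 fell (*G0s2*) and 1 (*Abhd5*) did not pass, while 46.0% of all genes were called, 18.4% higher and 27.6% lower. All 10 had P1d hearts that did not overlap the E18.5d hearts, 9 of them higher, where 54.4% of all genes did not overlap, 22.1% higher and 32.3% lower. The median log2 change was 0.96 over the 10 genes and -0.06 over all genes. Both comparisons use the same 3 E18.5d hearts, so they are not independent of each other.

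From P1d to P7d the genes parted. *Plin5* and *G0s2* rose, *Plin3* and *Pnpla2* fell, and the other 6 did not pass, with 44.2% of all genes called, 15.5% higher and 28.6% lower. Hearts of the 2 stages did not overlap for 5 of the genes, 3 higher and 2 lower at P7d, and for 53.6% of all genes, 19.3% higher and 34.3% lower. The median log2 change was -0.09 over the 10 genes and -0.09 over all genes. With the columns rescaled by the median of ratios, which moves the median of all genes by 0.09, *Cidea* and *Abhd5* also passed and the split was 4 higher and 2 lower. Setting each column to an equal sum or normalizing quantiles gave 3 higher and 2 lower. Without the 4 hearts with high *Xist*, which leaves 1, 3 and 1 hearts at E18.5d, P1d and P7d, 3 of the 10 genes were called between P7d and E18.5d, 4 between P1d and E18.5d and 0 between P7d and P1d by limma (2 at an unadjusted p under 0.05), and each log2 change kept its sign in all 3 comparisons.

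**Figure D1:**
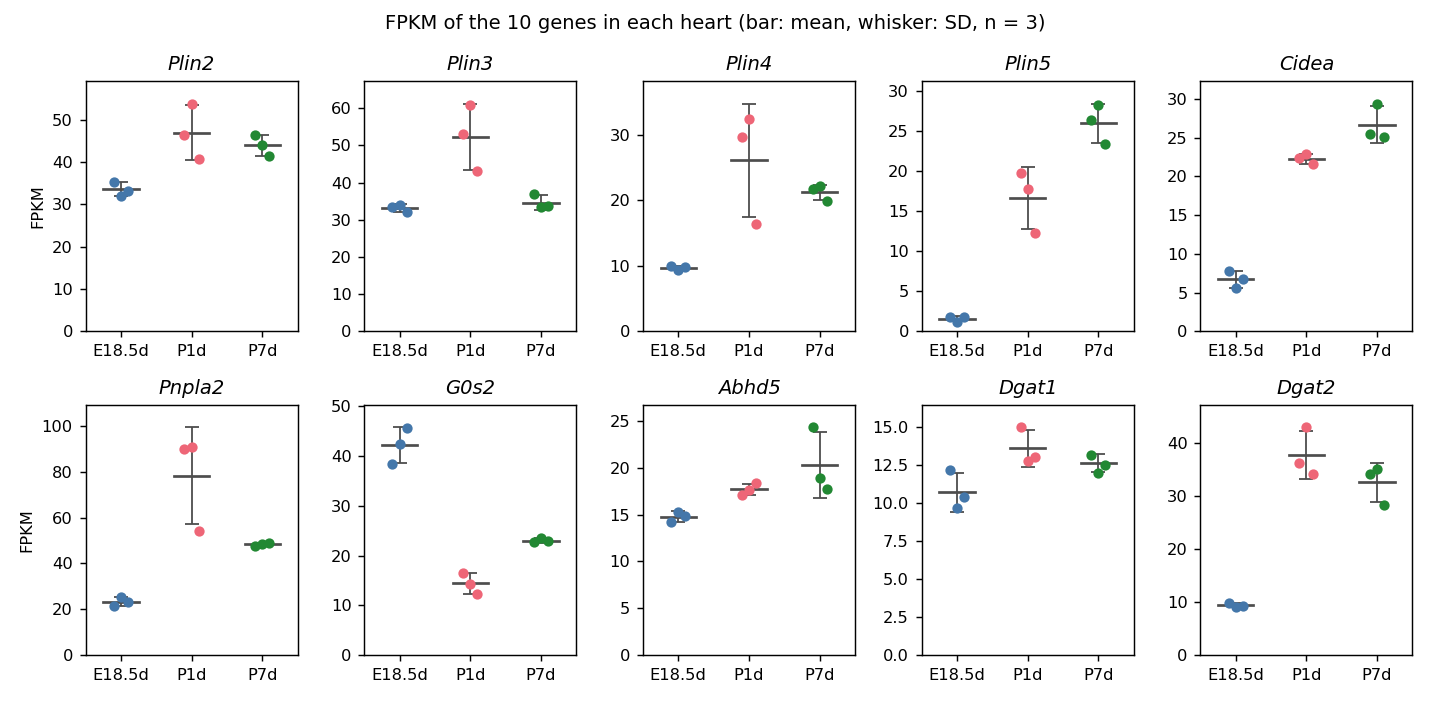
FPKM (y axis, linear from 0) of the 10 genes in each of the 9 hearts by stage (x axis), with a bar for the mean and a whisker for the SD of 3 hearts. *Plin5* lies between 1.20 and 1.74 FPKM at E18.5d and above 12 FPKM in every later heart, and *G0s2* is the gene whose E18.5d hearts lie above all others.

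Perilipin 5, encoded by *Plin5*, is the perilipin of tissues that oxidize fat, where it tethers droplets to mitochondria. Its FPKM was 1.72, 1.20 and 1.74 in the E18.5d hearts, 19.75, 17.81 and 12.27 in the P1d hearts and 26.35, 28.23 and 23.42 in the P7d hearts. The stages did not overlap and each later stage was higher. The E18.5d mean was 1.55 ± 0.306 (SD, n = 3). The P1d mean of 16.6 ± 3.88 was 10.7 times and the P7d mean of 26.0 ± 2.42 was 16.7 times this value. It had the largest log2 change of the 10 genes in both comparisons with E18.5d, 2.77 (SE 0.16, adjusted p = 3.52e-06, limma) at P1d and 3.41 (SE 0.16, adjusted p = 7.1e-07) at P7d. The step from P1d to P7d was 0.64 (SE 0.16, adjusted p = 0.0108), and it did not pass with *Xist* class as a covariate (0.55, adjusted p = 0.0737). The E18.5d values rest on about 74 to 92 fragments per heart, the fewest of any of the 10 genes. Both promoter windows of *Plin5* hold AGGTCA, and the letters are shown for 1 of them.

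*Plin4*, the neighbour of *Plin5*, encodes a perilipin with a very long repeat that coats small, new droplets. Its FPKM was 9.88, 9.32 and 9.87 at E18.5d, 29.65, 32.38 and 16.29 at P1d and 21.63, 22.15 and 19.87 at P7d. Every postnatal heart was above every E18.5d heart, and the P1d hearts spread on both sides of the P7d hearts. The log2 change was 1.29 (SE 0.20, adjusted p = 0.000812) at P1d and 1.05 (SE 0.20, adjusted p = 0.00225) at P7d against E18.5d, a 2.69-fold and a 2.19-fold ratio of means. Between P7d and P1d it was -0.23 (95% interval -0.69 to 0.22, adjusted p = 0.381). P1d replicate 3 decided that value: without it the change was -0.53 and passed (adjusted p = 0.000712). *Hdgfl2*, which shares 17 exon bases with *Plin4*, was between 18.24 and 20.17 FPKM at E18.5d, 15.07 and 18.04 at P1d and 15.97 and 17.08 at P7d, with every postnatal heart below every E18.5d heart.

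Perilipins 2 and 3 are made in most tissues, the first bound to droplets and the other exchanging with the cytosol. *Plin2* was at 35.35, 32.08 and 33.29 FPKM at E18.5d, 46.41, 53.83 and 40.70 at P1d and 46.47, 44.10 and 41.43 at P7d. All 6 postnatal hearts were above the E18.5d hearts, and P1d and P7d overlapped. The rise was 1.40-fold at P1d (log2 change 0.46, SE 0.10, adjusted p = 0.00349) and 1.31-fold at P7d (0.38, SE 0.10, adjusted p = 0.00901). The P7d and P1d hearts differed by -0.09 on the log2 scale (95% interval -0.30 to 0.13, adjusted p = 0.498), with the sign turned under each of 3 other scalings.

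*Plin3* was highest at P1d. Its FPKM was 33.36, 33.92 and 31.97 at E18.5d, 52.99, 60.86 and 43.10 at P1d and 36.93, 33.46 and 33.56 at P7d. The P1d hearts stood above both other stages, which overlapped. The log2 change was 0.63 (SE 0.11, adjusted p = 0.0013) from E18.5d to P1d, -0.57 (SE 0.11, adjusted p = 0.00255) from P1d to P7d and 0.06 (95% interval -0.18 to 0.31, adjusted p = 0.653) from E18.5d to P7d.

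*Cidea*, whose protein gathers at contacts between droplets and moves lipid into the larger one, is best known from brown fat. The gene (ENSMUSG00000024526.8) is at chr18:67343604-67367785 on the plus strand. Its FPKM was 7.77, 5.56 and 6.80 at E18.5d, 22.38, 22.96 and 21.63 at P1d and 25.50, 29.40 and 25.09 at P7d. The 3 stages did not overlap, and E18.5d was lowest. The mean rose 3.33-fold at P1d (log2 change 1.61, SE 0.11, adjusted p = 5.92e-06) and 3.97-fold at P7d (1.85, SE 0.11, adjusted p = 1.79e-06). The further change from P1d to P7d was 0.24 (95% interval 0.01 to 0.48, adjusted p = 0.0879), which passed under each of 3 other scalings and in the fit without E18.5d replicate 2. It also passed in the fit of only the 2 stages compared (adjusted p = 0.0431, limma). With *Xist* class as a covariate it was 0.10 (adjusted p = 0.51).

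Fat cell markers also moved with stage. The sum over 10 adipocyte markers was 0.2 to 0.72 FPKM at E18.5d, 4.8 to 6.15 at P1d and 8.9 to 10.5 at P7d. Only *Ucp1* and *Adipoq* had a high enough mean to be tested, and both reached it through the postnatal hearts. *Ucp1*, the uncoupling protein of brown fat, was at 0 in the 3 E18.5d hearts, at 0.05, 0 and 1.31 FPKM at P1d and at 5.77, 7.26 and 6.84 at P7d. *Adipoq* reached at most 3.09 FPKM and *Plin1*, the perilipin of fat cells, at most 1.42, while *Lep* did not pass 0.05 and *Elovl3* was at 0 in 8 hearts and at 0.06 in 1. The part of fat cells in the rise of *Cidea*, *Plin4*, *Plin5*, *Pnpla2* and *Dgat2* was not tested. Between P1d and P7d the mean of *Ucp1* went from 0.453 to 6.62 FPKM and that of *Adipoq* from 2.37 to 0.947. Without *Ucp1* the sum over the other 9 markers was 4.8 to 5.86 FPKM at P1d and 3.13 to 3.26 at P7d.

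**Figure D2:**
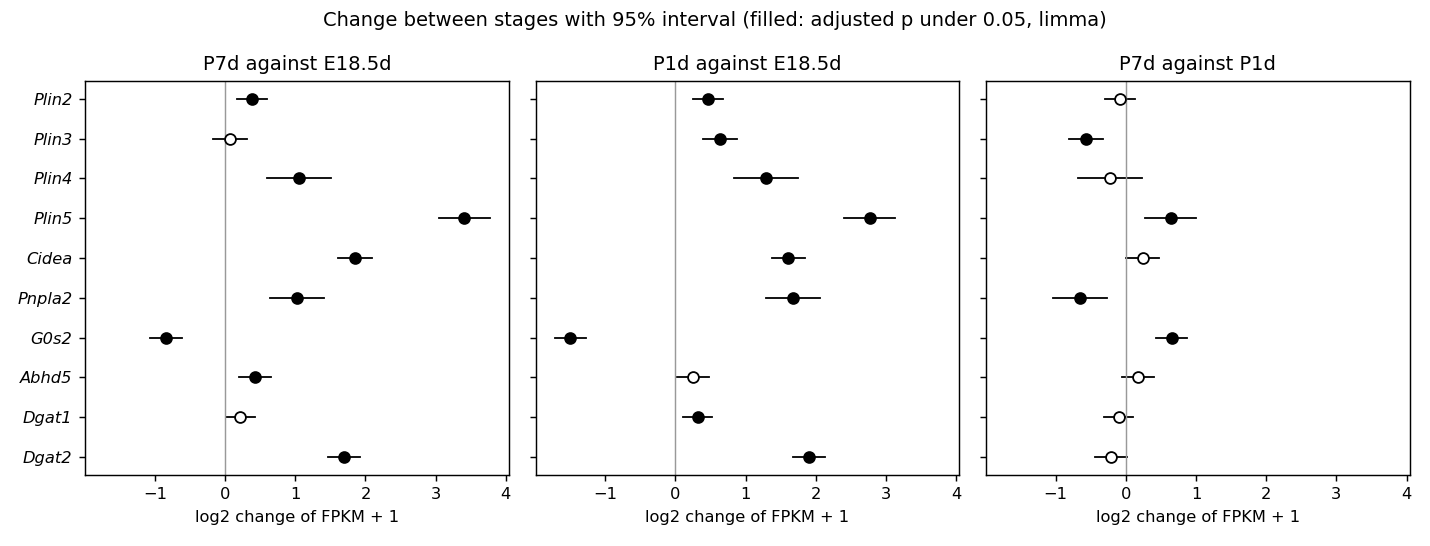
Log2 change of FPKM + 1 (x axis) of each gene in the 3 comparisons, with the 95% interval from limma and filled points for an adjusted p under 0.05. In both comparisons with E18.5d, *G0s2* is the only one of the 10 genes on the left of 0, and from P1d to P7d *Plin5* and *G0s2* are filled on the right and *Plin3* and *Pnpla2* on the left.

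The enzymes of the last step of triglyceride synthesis did not move alike. DGAT1 and DGAT2 are unrelated in sequence and catalyse the same reaction, DGAT1 in the endoplasmic reticulum and DGAT2 also at the droplet surface. *Dgat2* was at 9.71, 8.97 and 9.30 FPKM at E18.5d, 36.09, 42.83 and 34.16 at P1d and 34.05, 35.08 and 28.30 at P7d. Every postnatal heart was above 28 FPKM and every E18.5d heart below 10. The log2 change was 1.90 (SE 0.10, adjusted p = 2.3e-06) at P1d and 1.69 (SE 0.10, adjusted p = 2.66e-06) at P7d, 4.04-fold and 3.48-fold, and the difference between P7d and P1d was -0.21 (95% interval -0.44 to 0.02, adjusted p = 0.123).

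*Dgat1* was at 12.15, 9.66 and 10.37 FPKM at E18.5d, 14.97, 12.79 and 13.01 at P1d and 13.18, 12.00 and 12.51 at P7d. The P1d hearts were all above the E18.5d hearts, and the P7d hearts overlapped both. The 1.27-fold rise at P1d passed the test (log2 change 0.32, SE 0.09, adjusted p = 0.0191), but not without E18.5d replicate 2 (0.0744), E18.5d replicate 3 (0.0587) or P1d replicate 1 (0.0683), nor with columns set to an equal sum (log2 change 0.16, adjusted p = 0.37). With *Xist* class as a covariate it was 0.35 and did not pass (adjusted p = 0.0519). At P7d the change was 0.21 (95% interval 0.01 to 0.42, adjusted p = 0.0799), and it passed without E18.5d replicate 1 (0.30, adjusted p = 0.0247).

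The lipase, its activator and its inhibitor had 3 different courses. *Pnpla2*, the lipase, was at 21.47, 25.37 and 23.03 FPKM at E18.5d, 90.14, 91.11 and 54.08 at P1d and 47.61, 48.59 and 48.98 at P7d. No stages overlapped, and P1d was highest, with its replicate 3 closer to the P7d hearts than to the other P1d hearts. The log2 change was 1.67 (SE 0.17, adjusted p = 7.05e-05) from E18.5d to P1d, 3.37-fold, and -0.65 (SE 0.17, adjusted p = 0.0133) from P1d to P7d. The P7d mean of 48.4 ± 0.706 FPKM (SD, n = 3) was still 2.08-fold that of E18.5d (log2 change 1.03, SE 0.17, adjusted p = 0.00102). With *Xist* class as a covariate the fall from P1d to P7d was -0.60 and did not pass (adjusted p = 0.072).

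*G0s2*, which encodes a small protein that binds the lipase and blocks it, ran the other way. Its FPKM was 38.46, 42.43 and 45.59 at E18.5d, 16.42, 14.37 and 12.28 at P1d and 22.63, 23.49 and 22.93 at P7d. E18.5d was highest, P1d lowest and P7d between them, with no overlap. The log2 change was -1.50 (SE 0.10, adjusted p = 5.92e-06) at P1d, where the mean was 0.341 times that of E18.5d, and -0.84 (SE 0.10, adjusted p = 0.000138) at P7d. The rise from P1d to P7d was 1.60-fold (0.65, SE 0.10, adjusted p = 0.000753).

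*Abhd5* encodes the activator, also known as CGI-58, which perilipins hold at the droplet until lipolysis starts. Its FPKM was 14.20, 15.28 and 14.84 at E18.5d, 17.14, 17.69 and 18.37 at P1d and 24.33, 18.94 and 17.73 at P7d. Every postnatal heart was above every E18.5d heart, and P7d replicate 1 stood above the other 8 hearts. The 1.38-fold rise at P7d passed (log2 change 0.42, SE 0.10, adjusted p = 0.00752). The P1d change of 0.25 (95% interval 0.02 to 0.48, adjusted p = 0.0742) did not. It did in the fit without P7d replicate 1 (adjusted p = 0.0133) and in that of only the 2 stages compared (adjusted p = 0.0206). It also passed with the median of ratios (0.31, adjusted p = 0.0282) and with quantile normalization (0.29, adjusted p = 0.0496). It was 0.08 with columns set to an equal sum (adjusted p = 0.618) and 0.10 with *Xist* class as a covariate (adjusted p = 0.492). From P1d to P7d the change was 0.18 (95% interval -0.06 to 0.41, adjusted p = 0.193), and with that covariate it was 0.33 and passed (adjusted p = 0.0373).

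Ratios of genes within a heart do not depend on how the column was scaled, and 4 were tested over the stages. The FPKM ratio of the inhibitor *G0s2* to the lipase *Pnpla2* was 1.79, 1.67 and 1.98 at E18.5d, 0.182, 0.158 and 0.227 at P1d and 0.475, 0.483 and 0.468 at P7d. The inhibitor's RNA was thus above the lipase's in every E18.5d heart and below it in every postnatal heart, and the stages did not overlap. On the log2 scale the ratio changed by -3.28 from E18.5d to P1d and by 1.35 from P1d to P7d. The exact permutation test of the F statistic over all assignments of the 9 hearts to the stages gave p = 0.00357, the smallest it can give, and 0.00476 adjusted over the 4 ratios.

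The ratio of the activator *Abhd5* to *Pnpla2* was 0.661, 0.602 and 0.644 at E18.5d, 0.190, 0.194 and 0.340 at P1d and 0.511, 0.390 and 0.362 at P7d. It was lowest at P1d and highest at E18.5d with no overlap (exact permutation p = 0.00357, adjusted 0.00476). Between the perilipins, the ratio of *Plin5* to *Plin2* was 0.0487, 0.0374 and 0.0523 at E18.5d, 0.426, 0.331 and 0.301 at P1d and 0.567, 0.640 and 0.565 at P7d. It was higher at each later stage with no overlap, and *Plin5* stayed below *Plin2* in all 9 hearts (exact permutation p = 0.00357, adjusted 0.00476).

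The ratio of *Dgat2* to *Dgat1* was 0.799, 0.929 and 0.897 at E18.5d, 2.41, 3.35 and 2.63 at P1d and 2.58, 2.92 and 2.26 at P7d. *Dgat1* was the higher of the pair in every E18.5d heart and *Dgat2* in every postnatal heart, and P1d and P7d overlapped (exact permutation p = 0.0214, adjusted 0.0214). For single pairs of stages, 3 hearts against 3 cannot give a two-sided exact p below 0.1. The 11 pairs of stages without overlap were at 0.1, and *Dgat2* to *Dgat1* between P7d and P1d was at 0.6.

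**Figure D3:**
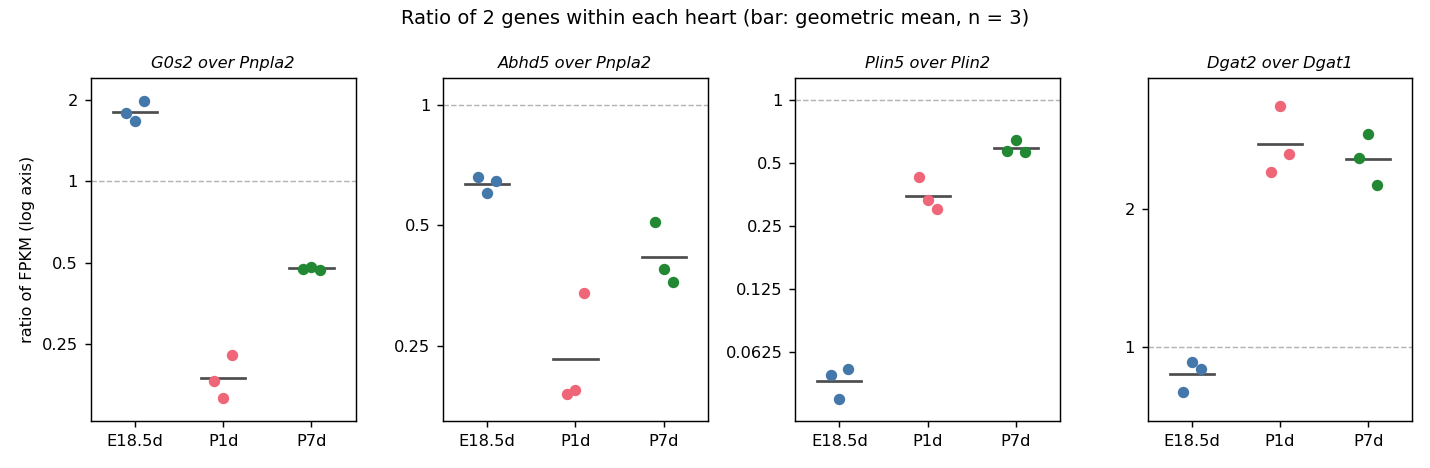
FPKM ratio of 4 gene pairs (y axis, log scale) in each heart by stage (x axis), with a bar for the geometric mean of 3 hearts and a dashed line at 1. The *G0s2* to *Pnpla2* ratio crosses from above 1 at E18.5d to 0.158 to 0.227 at P1d, and the *Dgat2* to *Dgat1* ratio crosses from below 1 to 2.26 or more in every postnatal heart.

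The order of the 10 genes by FPKM changed with stage. At E18.5d *G0s2* was highest with a mean of 42.2 ± 3.57 FPKM (SD, n = 3), followed by *Plin2* (33.6 ± 1.65) and *Plin3* (33.1 ± 1.00), which overlapped. *Pnpla2* (23.3 ± 1.96) and *Abhd5* (14.8 ± 0.543) came next without overlap, then *Dgat1*, *Plin4* and *Dgat2*, whose neighbours overlapped, then *Cidea* (6.71 ± 1.11) and last *Plin5*. At P1d *Pnpla2* was highest (78.4 ± 21.1), but its hearts overlapped those of *Plin3* (52.3 ± 8.90), as did those of *Plin3* and *Plin2* and of *Plin2* and *Dgat2*. *G0s2* was ninth of 10 at P1d (14.4 ± 2.07), overlapping *Plin5* above it and *Dgat1* below. At P7d *Pnpla2* (48.4 ± 0.706) was above *Plin2* (44.0 ± 2.52), and *Plin2* above *Plin3* (34.6 ± 1.98), without overlap. *Plin3*, *Dgat2*, *Cidea*, *Plin5* and *G0s2* then formed a run in which each overlapped the next, and *Dgat1* was lowest (12.6 ± 0.592).

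For each gene, the genes with the most similar course over the 9 hearts were found by the root mean square difference of log2(FPKM + 1) after each gene was centred on its own mean. For *Plin5* these were *Scd4* (0.18), a stearoyl-CoA desaturase, *Slc25a34* (0.30) and *Angptl4* (0.33), an inhibitor of lipoprotein lipase. The stage means of *Scd4* were 3.67, 38.0 and 51.8 FPKM. For *Cidea* they were *Gpcpd1* (0.12), *Ech1* (0.16), an enzyme of fatty acid oxidation, and *Acsl1* (0.19), which activates long-chain fatty acids. For *Dgat2* they were *Gm44386* (0.13), *Lipe* (0.15), which encodes hormone-sensitive lipase, and *Mlycd* (0.16), malonyl-CoA decarboxylase.

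Genes close to *Pnpla2* included *Retsat* (0.14) and *Pink1* (0.18). *Retsat*, a retinol saturase, was at 8.59, 34.3 and 18.3 FPKM on average at E18.5d, P1d and P7d. The nearest to *G0s2* were *Gas2l3* (0.12), *Parpbp* (0.13) and *Kif23* (0.14), and *Gas2l3* and *Kif23* are known from cell division. *Kif23* was at 12.1, 3.56 and 5.48 FPKM on average, lowest at P1d as *G0s2* was. *Plin4* was closest to *Slc41a3* (0.14). The genes with small changes had near neighbours throughout, *Orai3* for *Plin2* (0.05), *AI837181* for *Plin3* (0.03), *Pon2* for *Abhd5* (0.08) and *Ostm1* for *Dgat1* (0.06).

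Of 39 other genes of triglyceride synthesis, droplet structure and lipid hydrolysis, 29 had a mean of at least 1 FPKM and were tested. Between E18.5d and P7d 11 rose, 4 fell and 14 did not pass, with a median log2 change of 0.00. These 15 of 29 are near the 49.4% called over all genes, but the directions differed. Over all genes 12.5% rose and 36.9% fell, so the list had the larger share of rises and the smaller share of falls. The same held in the other comparisons, and no test of these shares was run. Between E18.5d and P1d 12 rose and 6 fell, where 46.0% of all genes were called, 18.4% as rises and 27.6% as falls. From P1d to P7d 9 rose and 5 fell, in total near the 44.2% of all genes, with 15.5% as rises and 28.6% as falls. The first split was 13 higher and 3 lower with quantile normalization, which gave 14 higher and 4 lower in the second and 12 and 3 in the third, and equal sums gave 10 and 2 in the third. *Plin1*, *Cidec* and *Cideb*, relatives of the genes described above, were among the 10 below that mean.

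In synthesis, the early enzymes upstream of the DGATs changed in both directions. *Gpam*, the mitochondrial acyltransferase that starts the pathway, was at 15.32, 14.14 and 13.65 FPKM at E18.5d, 28.23, 27.76 and 25.10 at P1d and 56.96, 52.24 and 49.34 at P7d, with a log2 change of 1.81 at P7d (adjusted p = 3.43e-07). *Gpd1*, which makes glycerol 3-phosphate, was at 1.27, 1.97 and 1.77 FPKM at E18.5d, 5.15, 4.38 and 4.85 at P1d and 11.54, 13.16 and 10.88 at P7d (2.27, adjusted p = 9.99e-07). Both were higher at each later stage without overlap, while the *Dgat2* hearts of P1d and P7d overlapped. *Gpat3* rose from P1d to P7d, by 1.02 (adjusted p = 0.000227). *Agpat5* (-0.64, adjusted p = 0.000154), *Agpat1* (-0.46, adjusted p = 0.000541) and *Soat1*, which esterifies cholesterol (-0.47, adjusted p = 0.00203), fell between E18.5d and P7d, and *Agpat4* fell by 0.59 at P1d (adjusted p = 0.00163). In the synthesis group 6 of 13 tested rose and 4 fell between E18.5d and P7d, where 12.5% of all genes were called higher and 36.9% lower.

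Among 6 hydrolysis genes tested, 3 rose and 0 fell by limma between E18.5d and P7d, against 12.5% and 36.9% of all genes. The other 3, *Lipa*, *Abhd6* and *Ddhd2*, did not pass, 1 of them at an unadjusted p under 0.05 (*Abhd6*, 0.0343). In each of the 3, the P7d hearts were all below the E18.5d hearts, with ratios of means of 0.864, 0.761 and 0.868. *Lipe*, whose enzyme acts after that of *Pnpla2*, was at 4.21, 3.78 and 3.59 FPKM at E18.5d, 21.80, 20.50 and 14.33 at P1d and 15.68, 16.09 and 15.27 at P7d. All postnatal hearts were above the E18.5d hearts and P1d and P7d overlapped, with log2 changes of 2.01 (adjusted p = 5.92e-06) at P1d and 1.78 (adjusted p = 1.04e-05) at P7d. *Ces1d*, a carboxylesterase and 1 of the 3 that rose by P7d, was at 0.35, 0.50 and 0.27 FPKM at E18.5d. It had a high enough mean to be tested only through the postnatal hearts, so its calls as higher are tied to that selection. At P1d it was at 6.86, 3.67 and 2.12 FPKM, a log2 change of 1.83 (adjusted p = 0.000638, limma). Of 10 other droplet proteins, 2 rose by P7d. *Hsd17b11* was at 10.74, 10.52 and 10.16 FPKM at E18.5d, 29.07, 27.23 and 16.18 at P1d and 10.83, 12.01 and 11.55 at P7d, higher at P1d than at both other stages as *Plin3* and *Pnpla2* were, and it fell by 0.97 from P1d to P7d (adjusted p = 0.00202). *Hilpda*, another protein that inhibits the lipase, fell by 0.56 (adjusted p = 0.00502) and *Tmem159* by 0.47 (adjusted p = 0.0156) over the same days, whereas *G0s2* rose.

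**Figure D4:**
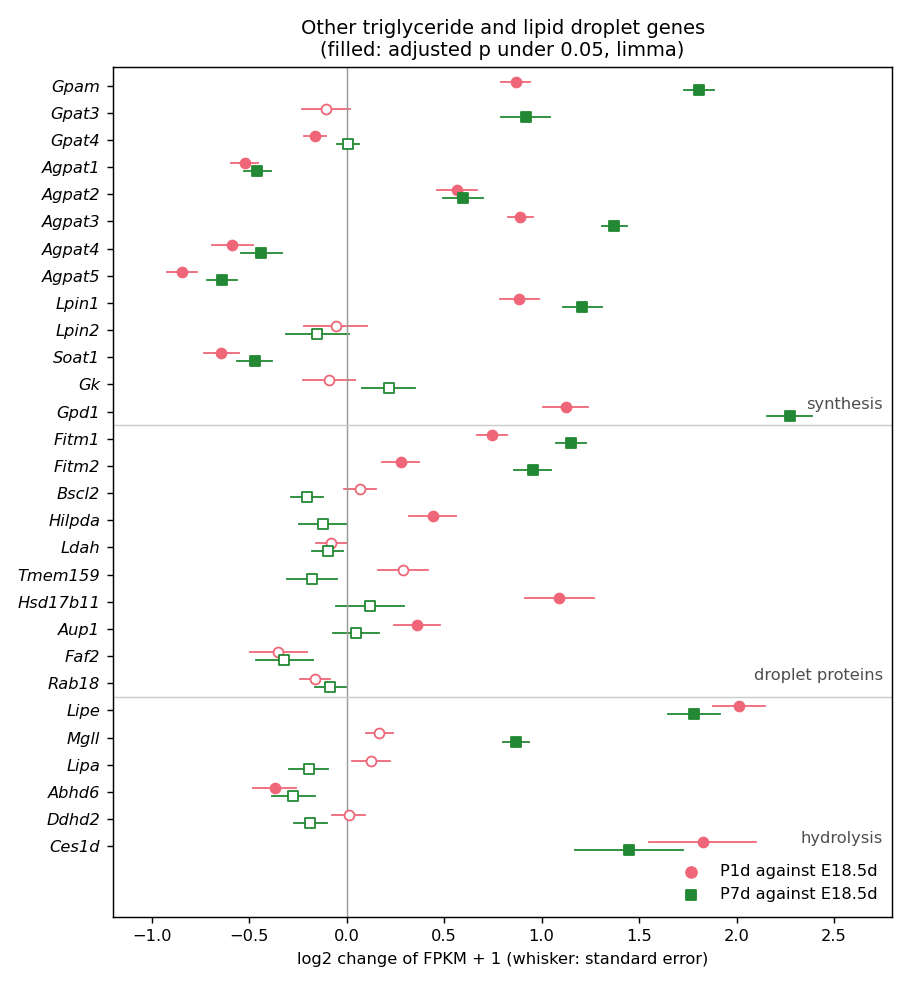
Log2 change of FPKM + 1 (x axis, whisker for the standard error) of the 29 tested genes of the wider list, circles for P1d and squares for P7d against E18.5d, filled for an adjusted p under 0.05 by limma. *Gpd1* (2.27) and *Gpam* (1.81) at P7d and *Lipe* at P1d (2.01) lie farthest to the right with *Ces1d* (1.83), and *Agpat5* farthest to the left.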

How the data were processed

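Total RNA of 9 hearts was sequenced from NEBNext Ultra libraries, and the authors deposited FPKM values to 2 decimals for 48820 genes, 1 column per heart. STAR, GRCm38 and mm10 are named in the submitters' processing notes, and the counting tool and its use of strand are not given in the sources used here. Samples were grouped by the stage in their titles. Identifiers were matched without version to GENCODE M21 of GRCm38 (48144 matched). Genes averaging 1 FPKM or more (13618, all 10 members included) were fitted on log2(FPKM + 1) with limma 3.58.1 in R 4.3.3 (eBayes with trend, 3 stages in 1 fit), with Benjamini-Hochberg adjustment over all genes tested and a threshold of 0.05, so fold changes on that scale understate those of low genes. Folds of means are of FPKM. Log2 FPKM ratios were tested by exact permutation in Python 3.11.15 with scipy 1.17.1. The fit was tested on simulated data.

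Steps between low values gave the depth, since 87.5% to 91.2% of these values were whole fragments within 0.1 (20.0% by chance), and 1 fragment per kilobase is worth 0.0216 to 0.0392 FPKM. From the wider list the 3 genes with the largest changes past the threshold in each direction were named in each comparison, and 3 nearest genes per member were found, of which 1 is not reported here. The members and lists were chosen with earlier results of these data known. P-values weigh differences between stages against the spread between these hearts within a stage. Alternatives were another pseudocount, filter, scaling or fit, *Xist* class as a covariate, the replicate number as a block, and leaving out hearts.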

Additional observations from a re-analysis of the deposited data

How the results depend on the processing

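Of 20 alternatives, those that reversed a direction did so for *Plin2* and *Dgat1* between P7d and P1d, neither of which was called. The log2 change of *Plin2* was 0.0429 with equal sums, 0.0238 with the median of ratios, 0.0362 with quantile normalization and between -0.18 and 0.0158 when each heart was left out in turn (0.0158 without P1d replicate 2). That of *Dgat1* was 0.0175 with equal sums, 0.0002 with the median of ratios and 0.0002 with quantile normalization. Leaving out the 4 hearts with *Xist* above 1 FPKM leaves 5 hearts, and then 3, 4 and 0 members were called (for P7d and then P1d against E18.5d, and for P7d against P1d), and 5, 6 and 1 genes of the wider list. The ratios could not pass with so few hearts: the log2 change from E18.5d to P7d was -1.82 for *G0s2* to *Pnpla2*, -0.24 for *Abhd5* to *Pnpla2*, 3.92 for *Plin5* to *Plin2* and 1.48 for *Dgat2* to *Dgat1*. On ranks, the test of *Dgat2* to *Dgat1* (log2 change 1.56) gave an adjusted exact permutation p of 0.05 and no longer passed.

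Leaving out each heart in turn gave 8 to 9, 8 to 10 and 4 to 5 called members and 15 to 18, 15 to 20 and 10 to 16 called genes of the wider list. *Dgat1* between P7d and E18.5d passed with the median of ratios (0.38, adjusted p = 0.00876), with quantile normalization (0.37, adjusted p = 0.01) and with the replicate block (0.21, adjusted p = 0.0272). Correlations between stages were -0.055 to 0.112 for same-numbered hearts and -0.182 to 0.129 for hearts with different numbers. With 3 hearts a stage, this cannot decide whether the numbers pair the hearts. The fit with the replicate block called 9, 9 and 4 members and 15, 17 and 14 genes of the wider list. With 3 hearts a stage, the standard error of a log2 change was 0.09 for *Dgat1* and 0.10 for *Abhd5*, and *Plin5* at E18.5d rests on the fewest fragments of the members.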

Other observations

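P1d replicate 3 was the lowest of the 3 P1d hearts for 8 of the 10 genes, where it was the lowest for 36.7% of all 13618 genes. *Cidea*, among those 8, was at 21.63 FPKM in it against 22.38 and 22.96, and *Pnpla2* at 54.08 against 90.14 and 91.11. Without it the P1d mean was 90.6 FPKM for *Pnpla2*, 56.9 for *Plin3*, 31.0 for *Plin4* and 18.8 for *Plin5*. *Abhd5* was highest in that heart, at 18.37 FPKM.

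Among the 10 genes, those nearest to each other over the 9 hearts were *Plin2* and *Dgat1*, with a root mean square difference of 0.15 on the log2 scale after centring. *Plin4* was 0.21 from *Pnpla2* and *Cidea* 0.22 from *Dgat2*. The 9 hearts and their stages are common to all these values, so they describe shared courses over stage and carry no test.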
